A study of Mus musculus with 14 samples.

Results

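RNA labelled as tibia, from ovariectomized mice given zoledronic acid, was compared with that of ovariectomized mice given either of 2 phenolic acids, which were pooled. The members were chosen by their treatment labels, as the 3 OVX-ZA libraries against the pooled 5 of OVX-HA (3) and OVX-PPA (2), which makes 8 of the 14 libraries of the series. All were wild-type female C57Bl/6 mice, and all 8 libraries share the ovariectomy (OVX), removal of the ovaries. OVX-ZA mice received zoledronic acid, OVX-HA mice hippuric acid and OVX-PPA mice a hydroxyphenyl propionic acid that the labels also call 3-3-PPA. OVX-PBS (3 libraries, ovariectomized and given PBS) and sham (3 libraries, sham surgery) served to estimate the spread and are given as a description. Treatment started 2 to 4 days after surgery and lasted 8 weeks, and no source used here gives doses, routes or the age of the mice. Nothing in the labels states whether libraries came from different animals, so p-values measure the spread between these samples, which may be technical.

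Zoledronic acid is a nitrogen-containing bisphosphonate that binds bone mineral and is taken up by osteoclasts, the multinucleated cells that resorb bone. Inside them it inhibits farnesyl pyrophosphate synthase, an enzyme of the mevalonate pathway encoded by Fdps, which deprives small GTPases of their lipid anchor and stops resorption. Osteoclasts form when mononuclear precursors of the macrophage lineage meet M-CSF and RANKL and then fuse, for which the membrane proteins DC-STAMP and OC-STAMP are needed, and bone-forming osteoblasts lay down type I collagen and osteocalcin where resorption has taken place. Hippuric acid is the glycine conjugate of benzoic acid, with an amide bond in its side chain, and 3-3-PPA carries a phenolic hydroxyl on its ring and a plain propionic acid side chain. Both appear in blood when gut microbes break down plant polyphenols.

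Libraries held 11.9 to 25.1 M estimated counts in OVX-ZA, 31.3 to 35.4 M in OVX-HA and 18.7 to 29.7 M in OVX-PPA, with 20.1 to 35.2 M in OVX-PBS and 29.2 to 32.6 M in sham. OVX-ZA replicate 1 was the shallowest of all. Levels below are counts per 1 M counts (CPM) after TMM scaling. OVX-HA replicate 2 stood apart from the other 7 libraries of the comparison, with 1.17 CPM of the oligodendrocyte gene Mobp against 153 to 507 CPM, and OVX-PBS replicate 1 (5.55 CPM) stood apart in the same way. OVX-ZA replicates 1 and 2 carried the lymph node vessel transcript Glycam1, at 14.6 and 38.6 CPM, whereas OVX-ZA replicate 3 had none and the 5 phenolic acid libraries had 0.0274 to 0.498 CPM. The hindlimb genes Tbx4 (0.821 to 1.95 CPM) and Pitx1 (0 to 0.412 CPM) were low in these 8 libraries, while osteoclast, osteoblast and muscle genes were plentiful, and central nervous transcripts such as Mobp were plentiful as well in 7 of the 8. OVX-HA replicate 2 had the highest sensory neuron list mean of the 8, at a log2 CPM of 4.65, against 3.40 to 4.21 in the others. The labels name the tissue as tibia, and the source of the central nervous transcripts was not tested. In bulk RNA, fewer cells of a type and less RNA per cell cannot be told apart.

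Libraries labelled as tibia carried more RNA for both osteoclast fusion proteins in OVX-ZA mice than in mice given the phenolic acids. Of 21761 genes tested, these 2, Ocstamp and Dcstamp, were higher at an adjusted p of at most 0.05 (0.00919% of genes) and 0 were lower, by edgeR's quasi-likelihood test with Benjamini-Hochberg (BH) adjustment over all genes. At an unadjusted p under 0.05 were 830 genes (3.81%), of which 361 were higher (1.66%) and 469 were lower (2.16%) in OVX-ZA. By DESeq2, 38 genes were higher (0.175%) and 15 were lower (0.0689%).

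Ocstamp (ENSMUSG00000027670, chr2:165393760-165400405, minus strand, mm10) encodes OC-STAMP, a multipass membrane protein required for fusion of osteoclast precursors. It read 19.9, 9.16 and 14.3 CPM in OVX-ZA, against 1.86, 2.96 and 2.00 CPM in OVX-HA and 2.71 and 3.11 CPM in OVX-PPA. The lowest OVX-ZA library was well above the highest phenolic acid library, and the 5 phenolic acid libraries lay close to OVX-PBS (2.40 to 3.09 CPM) and sham (2.06 to 3.83 CPM). Its mean was 14.5 ± 5.36 CPM in OVX-ZA (SD, n = 3) and 2.53 ± 0.566 CPM in the phenolic acids (SD, n = 5), a fitted log2 difference of 2.52 ± 0.262 (SE), or 5.72-fold, with an adjusted p of 0.0112 (edgeR).

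Dcstamp (ENSMUSG00000022303, chr15:39745930-39760938, plus strand) encodes DC-STAMP, the partner of OC-STAMP in precursor fusion. It read 26.0, 12.3 and 13.9 CPM in OVX-ZA, against 2.11, 3.89 and 2.33 CPM in OVX-HA and 2.98 and 3.53 CPM in OVX-PPA. Again the groups did not overlap, and OVX-PBS (3.26 to 4.24 CPM) and sham (2.74 to 4.90 CPM) lay with the phenolic acids. The log2 difference was 2.55 ± 0.291 (SE), or 5.84-fold, with an adjusted p of 0.0154 (edgeR).

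As neither gene overlapped between the groups, leaving out 1 of the 8 libraries could not turn its direction. With 1 library left out, the log2 differences were 2.22 to 2.76 for Ocstamp and 2.14 to 2.74 for Dcstamp. The calls were less stable than the sizes. By edgeR 0 genes were called when OVX-ZA replicate 1 was left out (451 at an unadjusted p under 0.05) and 0 when OVX-PPA replicate 1 was (695), and DESeq2 was not run there. Leaving out OVX-PPA replicate 2 gave 1 call, OVX-HA replicate 3 gave 4 and OVX-HA replicate 2 gave 17. Without OVX-HA replicate 1, 2 genes were called, of which 1 was called with all libraries: Ocstamp had an adjusted p of 0.0497 there and Dcstamp of 0.0522. The fit of only the 8 libraries called 0 genes, with an adjusted p of 0.0711 for each of Ocstamp and Dcstamp and 651 genes at an unadjusted p under 0.05.

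**Figure D1:**
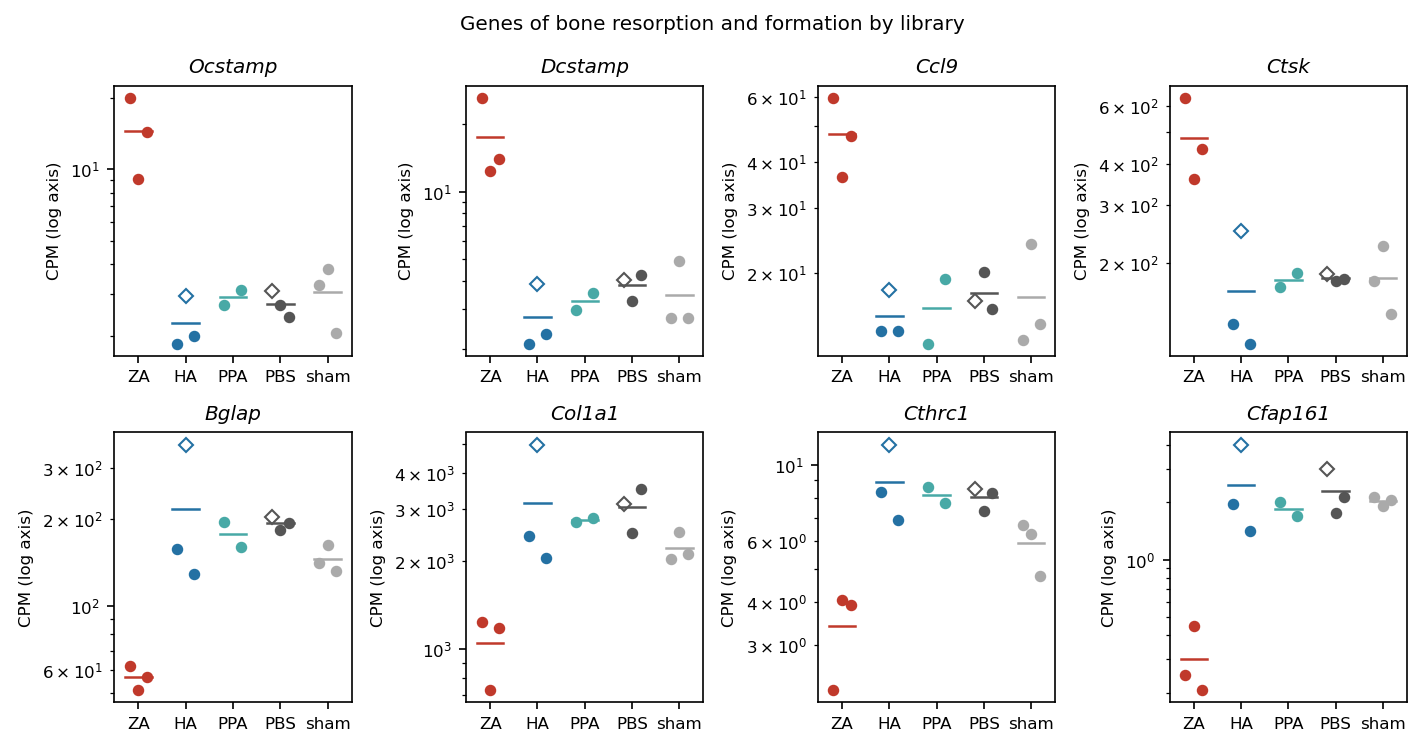
CPM on log axes of 8 genes in each library of OVX-ZA, OVX-HA, OVX-PPA, OVX-PBS and sham (points), with group means as lines; open diamonds mark OVX-HA replicate 2 and OVX-PBS replicate 1. The 3 OVX-ZA points of Ocstamp, Dcstamp, Ccl9 and Ctsk lie above all 5 phenolic acid points, and those of Bglap, Col1a1, Cthrc1 and Cfap161 lie below them.

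Osteoclast genes were among the next genes by p, and none of them passed adjustment over all genes. Ccl9, a chemokine that osteoclasts secrete and that draws their precursors through the receptor CCR1, read 59.4, 36.4 and 46.8 CPM in OVX-ZA, against 14, 18 and 13.9 CPM in OVX-HA and 12.9 and 19.2 CPM in OVX-PPA. The OVX-ZA libraries were all above the phenolic acid libraries, with a log2 difference of 1.60 ± 0.218 (SE) and an adjusted p of 0.0576 (edgeR). Slc37a2, a sugar phosphate transporter abundant in osteoclasts, read 109, 56.8 and 70.6 CPM in OVX-ZA, against 21.2, 34.2 and 20.1 CPM in OVX-HA and 24.6 and 35.9 CPM in OVX-PPA. Its groups did not overlap either, with a log2 difference of 1.54 ± 0.243 and an adjusted p of 0.102 (edgeR). Cyp2s1, a cytochrome P450, read 15.5, 9.65 and 13.3 CPM in OVX-ZA, against 4.24, 1.43 and 2.52 CPM in OVX-HA and 2.98 and 2.69 CPM in OVX-PPA. It had a log2 difference of 2.2 ± 0.314 and an adjusted p of 0.0586 (edgeR), and it is on no list of osteoclast genes used here.

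Of the lower genes none passed adjustment, and Cfap161 and Bglap had the smallest p. Bglap, which encodes osteocalcin, the main non-collagen protein that osteoblasts secrete, read 61.9, 51.1 and 56.9 CPM in OVX-ZA, against 158, 361 and 129 CPM in OVX-HA and 196 and 159 CPM in OVX-PPA. All 3 OVX-ZA libraries were below all 5 phenolic acid libraries, OVX-HA replicate 2 being the highest, and OVX-PBS (183 to 202 CPM) and sham (132 to 163 CPM) were within the phenolic acid range. The log2 difference was -1.82 ± 0.284 (SE), with an adjusted p of 0.102 (edgeR). Bglap2 and Bglap3 are near-identical neighbours of Bglap on chromosome 3, and no source used here says how the authors' counting divided their reads. Bglap3 read 3.79, 3.40 and 3.22 CPM in OVX-ZA, against 7.99, 18.8 and 7.54 CPM in OVX-HA and 13.1 and 9.30 CPM in OVX-PPA, with an adjusted p of 0.150 (edgeR). All 3 osteocalcin genes were lowest in OVX-ZA, but they cannot be counted as independent.

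Cfap161 (chr7:83774101-83794880, minus strand), named for a cilia- and flagella-associated protein, had the largest log2 difference of the genes chosen by rank. It was counted 3, 10 and 5 times in OVX-ZA, against 72, 137 and 43 times in OVX-HA and 37 and 52 times in OVX-PPA, which is 0.247, 0.447 and 0.206 CPM against 1.97, 4.01 and 1.41 CPM and 2.01 and 1.69 CPM. The ranges did not overlap, and OVX-PBS (1.77 to 2.97 CPM) and sham (1.92 to 2.13 CPM) lay with the phenolic acids. Its log2 difference was -2.83 ± 0.420 (SE), with an adjusted p of 0.0732 (edgeR). With so few counts in OVX-ZA, the size of this difference is imprecise.

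Cthrc1, a secreted protein of the collagen matrix, read 2.23, 4.07 and 3.92 CPM in OVX-ZA, against 8.35, 11.4 and 6.92 CPM in OVX-HA and 8.63 and 7.75 CPM in OVX-PPA (log2 difference -1.32 ± 0.225, adjusted p = 0.150, edgeR). Cpz, a carboxypeptidase that binds Wnt proteins, read 1.73, 2.06 and 2.15 CPM in OVX-ZA, against 4.93, 9.07 and 4.16 CPM in OVX-HA and 5.10 and 5.87 CPM in OVX-PPA (-1.55 ± 0.295, adjusted p = 0.222, edgeR). Neither gene overlapped between the groups, a condition that the rule for naming them required. In all 521 genes (2.39%) had every OVX-ZA library below every phenolic acid library and 307 (1.41%) had every OVX-ZA library above.

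Without OVX-HA replicate 2, 12 genes were higher (0.0555%) and 5 were lower (0.0231%) by edgeR. The higher ones were Ocstamp, Dcstamp, Ccl9, Cyp2s1, Slc37a2, Ctsk, Oscar, Atp6v0d2, Mst1r, Slc9b2, Mmp13 and Ifi202b, and the lower ones were Bglap, Bglap2, Bglap3, Cfap161 and Col1a2. Of these 17, 16 were also called by DESeq2 with all libraries, Mmp13 being the exception; both tools read the same counts, so this is not independent support. Mst1r, Slc9b2, Mmp13 and Ifi202b are named because of these calls, after their values were seen. Ifi202b, an interferon-inducible gene, was counted 16, 21 and 13 times in OVX-ZA, against 0, 0 and 0 times in OVX-HA and 1 and 0 times in OVX-PPA. Slc9b2, a sodium-proton exchanger of osteoclasts, read 29.4, 18.6 and 21.0 CPM in OVX-ZA, against 9.58, 16.8 and 9.80 CPM in OVX-HA and 12.2 and 13 CPM in OVX-PPA.

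Promoter sequence was available for 10 of the 16 genes looked up. Those of Ccl9, Slc37a2, Ctsk and Oscar are shown because these osteoclast genes were high together, and that of Bglap because it was low. They run from 250 bases before to 50 bases after the RefSeq gene start (GRCm38.p6), 5′ to 3′ on the gene's strand. Capitals mark matches, on either strand, to TGANTCA, the letters bound by AP-1, and GGAAA, the core letters bound by NFAT, which reads TTTCC on the other strand.
Ccl9: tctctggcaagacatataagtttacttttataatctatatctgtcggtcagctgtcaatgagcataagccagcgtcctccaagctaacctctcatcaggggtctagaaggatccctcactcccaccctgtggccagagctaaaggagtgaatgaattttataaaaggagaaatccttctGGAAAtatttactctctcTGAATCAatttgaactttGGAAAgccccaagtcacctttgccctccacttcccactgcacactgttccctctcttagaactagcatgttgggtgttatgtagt
Slc37a2: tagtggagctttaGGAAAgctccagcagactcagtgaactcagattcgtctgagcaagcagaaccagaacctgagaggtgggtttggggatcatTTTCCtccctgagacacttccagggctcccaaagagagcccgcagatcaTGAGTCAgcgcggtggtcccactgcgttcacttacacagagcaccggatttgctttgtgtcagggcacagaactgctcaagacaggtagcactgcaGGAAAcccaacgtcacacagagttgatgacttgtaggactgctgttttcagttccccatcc
Ctsk: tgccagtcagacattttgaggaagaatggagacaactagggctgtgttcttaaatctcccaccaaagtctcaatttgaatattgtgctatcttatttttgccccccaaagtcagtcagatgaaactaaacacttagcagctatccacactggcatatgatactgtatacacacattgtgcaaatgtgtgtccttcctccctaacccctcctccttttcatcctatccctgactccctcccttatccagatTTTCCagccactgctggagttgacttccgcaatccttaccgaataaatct
Oscar: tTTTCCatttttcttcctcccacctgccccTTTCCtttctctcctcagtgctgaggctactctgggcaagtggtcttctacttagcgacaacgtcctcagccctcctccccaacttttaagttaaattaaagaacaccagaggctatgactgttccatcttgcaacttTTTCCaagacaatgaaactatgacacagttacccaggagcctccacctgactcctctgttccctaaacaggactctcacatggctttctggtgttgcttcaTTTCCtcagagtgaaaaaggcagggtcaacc
Bglap: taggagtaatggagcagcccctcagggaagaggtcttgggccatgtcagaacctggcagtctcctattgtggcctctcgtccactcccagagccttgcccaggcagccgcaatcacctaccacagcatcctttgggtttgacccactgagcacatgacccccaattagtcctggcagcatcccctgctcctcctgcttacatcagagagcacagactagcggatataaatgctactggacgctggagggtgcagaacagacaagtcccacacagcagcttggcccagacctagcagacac
The windows are chr11:83578587-83578886 (minus strand) for Ccl9, chr9:37255689-37255988 (minus strand) for Slc37a2, chr3:95498960-95499259 (plus strand) for Ctsk, chr7:3616108-3616407 (minus strand) for Oscar and chr3:88384417-88384716 (minus strand) for Bglap. The Ccl9 and Slc37a2 windows each held 1 match to TGANTCA and the Ctsk and Oscar windows 0, which 7.81% of 32851 promoter windows hold. GGAAA was found 2 times in Ccl9, 3 times in Slc37a2, 1 time in Ctsk and 4 times in Oscar, and 61.3% of windows hold it. The Bglap window held 0 matches of either. Windows of other lower genes, which are not printed, did hold the NFAT core letters. They were found 2 times in Col1a2, 1 time in Cpz and 1 time in Cfap161. The 3 windows of Bglap3 held them 1, 1 and 0 times. The window of the higher gene Cyp2s1, also not printed, held them 1 time. All of these unprinted windows held 0 matches to the AP-1 letters. The NFAT core letters thus did not separate higher from lower genes. A match describes the letters and is not a bound site.

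The genes of resorption were read by role, beginning with fusion and surface proteins. Of 14 such genes, 12 had positive log2 differences, 8 an unadjusted p under 0.05 in that direction and 5 had OVX-ZA libraries all above the phenolic acids, which over all genes tested held for 1.66% and 1.41%. Their median log2 difference was 0.46, beside -0.04 over all genes tested. The 14 include the called genes Ocstamp and Dcstamp, which are among the 8 and the 5. This list and those below were chosen with earlier results of these data known, so their counts describe and do not test. Oscar, a collagen receptor that costimulates osteoclast formation, read 19.2, 10.7 and 10.7 CPM in OVX-ZA, against 4.38, 7.23 and 4.33 CPM in OVX-HA and 4.88 and 5.32 CPM in OVX-PPA (log2 difference 1.36, adjusted p = 0.165, edgeR). Calcr, the calcitonin receptor, overlapped between the groups, at 1.48, 1.52 and 0.866 CPM in OVX-ZA against 0.681 to 1.17 CPM in the phenolic acids.

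Of 12 proteases and phosphatases by which osteoclasts degrade matrix, 11 had positive log2 differences, and the median was 0.48. An unadjusted p under 0.05 in that direction held for 7 of them, against 1.66% of all genes tested. Ctsk, cathepsin K, the collagenase of the resorption pit, read 633, 359 and 444 CPM in OVX-ZA, against 131, 251 and 114 CPM in OVX-HA and 170 and 186 CPM in OVX-PPA. Its groups did not overlap, with a log2 difference of 1.49 ± 0.251 (SE) and an adjusted p of 0.144 (edgeR). Mmp9, a gelatinase of osteoclasts, read 899, 462 and 546 CPM in OVX-ZA, against 186, 258 and 157 CPM in OVX-HA and 176 and 308 CPM in OVX-PPA (log2 difference 1.56, adjusted p = 0.180, edgeR). Acp5, the tartrate-resistant phosphatase used to stain osteoclasts, did overlap, at 594, 313 and 364 CPM in OVX-ZA against 206, 364 and 163 CPM in OVX-HA and 249 and 286 CPM in OVX-PPA. Its log2 difference was 0.74 with an unadjusted p of 0.0118 (edgeR). Cstb, an inhibitor of cathepsins, was non-overlapping at 24.2 to 29.8 CPM in OVX-ZA against 14.5 to 21.6 CPM in the phenolic acids.

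Of 13 genes that acidify the resorption pit, 11 had positive differences, with a median of 0.20. An unadjusted p under 0.05 in that direction held for 4 of them, against 1.66% of all genes tested. Atp6v0d2, the proton pump subunit that is also needed for fusion, read 74.4, 43.9 and 46.3 CPM in OVX-ZA, against 18.3, 36.0 and 16.1 CPM in OVX-HA and 25.4 and 29.7 CPM in OVX-PPA (log2 difference 1.13, adjusted p = 0.420, edgeR). Clcn7, the chloride-proton exchanger of the ruffled border, had a log2 difference of 0.35 and Tcirg1, the osteoclast proton pump subunit, of 0.54, and Tcirg1 overlapped between the groups.

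Of 13 transcription factors of osteoclast formation, 12 had positive differences, and the median was 0.32. An unadjusted p under 0.05 in that direction held for 4 of them, against 1.66% of all genes tested. Jdp2, an AP-1 factor needed for osteoclast formation, read 39.9, 27.2 and 34.5 CPM in OVX-ZA, against 17.2, 20.1 and 14.4 CPM in OVX-HA and 17.1 and 21.2 CPM in OVX-PPA (log2 difference 0.91, adjusted p = 0.165, edgeR). Prdm1, a repressor that silences inhibitors of osteoclast formation and is also a plasma cell factor, read 6.93 to 12.1 CPM in OVX-ZA against 3.45 to 5.74 CPM in the phenolic acids. Nfatc1, the master factor of osteoclast formation, read 99.3, 61.1 and 84.4 CPM in OVX-ZA, against 53.1, 63.8 and 61.7 CPM in OVX-HA and 53.1 and 60.4 CPM in OVX-PPA. Nfatc1 thus overlapped, with a log2 difference of 0.48 and an unadjusted p of 0.00608 (edgeR).

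Of the 10 genes of the RANKL, OPG and M-CSF axis, 7 had positive differences, with a median of 0.10. An unadjusted p under 0.05 in that direction held for 4 of them, against 1.66% of all genes tested. Tnfrsf11a, which encodes RANK, the receptor of RANKL, was the 1 of the 10 that did not overlap, against 1.41% of all genes. It read 14.8, 9.70 and 10.3 CPM in OVX-ZA against 6.46, 7.08 and 5.74 CPM in OVX-HA and 6.94 and 6.91 CPM in OVX-PPA (log2 difference 0.80, adjusted p = 0.294, edgeR). Tnfsf11, which encodes RANKL itself, read 2.56, 4.20 and 3.88 CPM in OVX-ZA, against 1.12, 3.13 and 1.28 CPM in OVX-HA and 1.68 and 2.17 CPM in OVX-PPA. Tnfrsf11b, which encodes osteoprotegerin (OPG), the soluble decoy of RANKL, had a log2 difference of -0.16, and of 0.12 without OVX-HA replicate 2.

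The mean log2 CPM of the fusion and surface list was 4.86, 4.41 and 4.44 in OVX-ZA, against 3.74, 3.97 and 3.70 in OVX-HA and 3.70 and 4.04 in OVX-PPA. Every OVX-ZA library was above every phenolic acid library for this list, and likewise for the protease, acid secretion, transcription factor and RANKL axis lists. For acid secretion, sham replicate 2 (6.23) was above OVX-ZA replicates 2 (6.11) and 3 (6.20). In the other lists all OVX-PBS and sham libraries were below OVX-ZA, narrowly so for sham replicate 2 in the RANKL axis (3.63 against 3.64 in OVX-ZA replicate 2). OVX-ZA replicate 1, the shallowest library, was the highest in all 5 lists, and its part in the results was measured by leaving it out as above. Markers of macrophages, the lineage that gives rise to osteoclasts, overlapped between the groups as a list, at a mean log2 CPM of 4.06 to 4.49 in OVX-ZA against 3.71 to 4.47 in the phenolic acids, with a median log2 difference of 0.09. The difference of these list means was 0.36, and 0.28 to 0.50 with 1 library left out, beside 0.36 for the osteoclast transcription factors. Cd68, a lysosomal protein of macrophages and osteoclasts, did not overlap, at 39.9 to 62.9 CPM in OVX-ZA against 18.9 to 31.3 CPM in the phenolic acids.

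**Figure D2:**
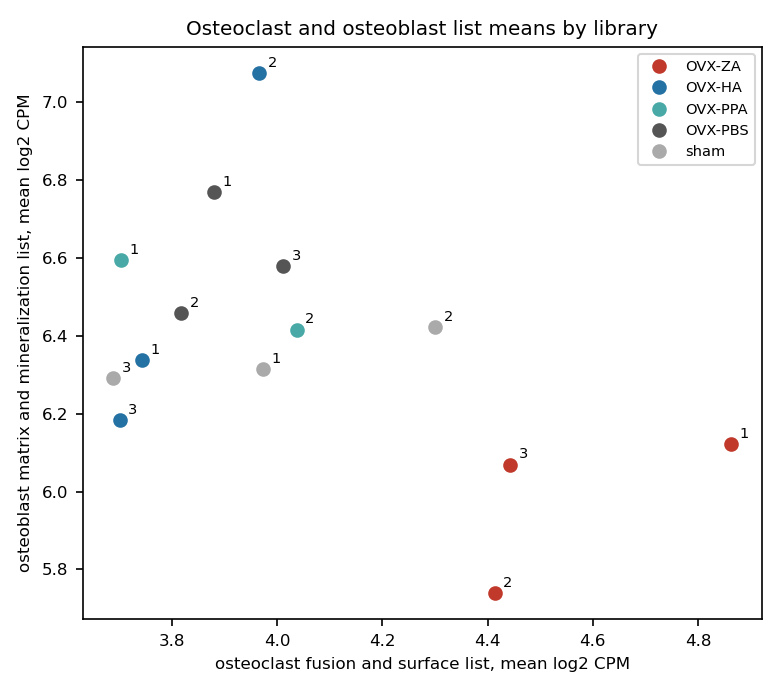
Mean log2 CPM of the 14 osteoclast fusion and surface genes (x axis) against that of the 19 osteoblast matrix and mineralization genes (y axis) in the 14 libraries, with replicate numbers beside the points. The 3 OVX-ZA libraries lie at the lower right, with x of at least 4.41 and y of at most 6.12.

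None of the bone matrix genes passed adjustment. Of 19 osteoblast matrix and mineralization genes, 15 had negative log2 differences, 10 with an unadjusted p under 0.05, and 8 had every OVX-ZA library below every phenolic acid library, against 2.16% and 2.39% of all genes tested. The median was -0.39, beside -0.04 over all genes, and 4 of the 19 had positive differences. The 19, the 10 and the 8 each include the near-identical Bglap, Bglap2 and Bglap3, which cannot be counted as independent. Col1a1, which encodes the main chain of type I collagen, read 1233, 724 and 1181 CPM in OVX-ZA, against 2431, 4974 and 2045 CPM in OVX-HA and 2708 and 2801 CPM in OVX-PPA. The groups did not overlap, with a log2 difference of -1.51 ± 0.297 (SE) and an adjusted p of 0.245 (edgeR). Col1a2, its partner chain, read 1237, 858 and 1212 CPM in OVX-ZA, against 2346, 4470 and 2114 CPM in OVX-HA and 2829 and 3126 CPM in OVX-PPA (-1.43 ± 0.261, adjusted p = 0.180, edgeR). Alpl, the phosphatase that permits mineralization, did not follow, at 70.6, 39.6 and 54.8 CPM in OVX-ZA against 40.5 to 77.9 CPM in the phenolic acids. Its log2 difference was 0.01, with a 95% interval of -0.46 to 0.48. Ibsp, bone sialoprotein, read 211, 123 and 155 CPM in OVX-ZA and 73.2 to 204 CPM in the phenolic acids, with a log2 difference of 0.35 and an interval of -0.31 to 1.00.

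The list mean over these 19 genes was 6.12, 5.74 and 6.07 in OVX-ZA, against 6.34, 7.08 and 6.18 in OVX-HA and 6.59 and 6.42 in OVX-PPA. OVX-HA replicate 2 was the highest of the 8 libraries, and without it the difference of the list means was -0.37, against -0.54 with it. Of 11 osteoblast transcription factors, 9 had negative differences and 3 an unadjusted p under 0.05 in that direction, against 2.16% of all genes tested. Their list means overlapped, and their median moved to -0.02 without OVX-HA replicate 2, against -0.30 with it. Twist1, which restrains osteoblast maturation, read 10.9, 8.89 and 9.16 CPM in OVX-ZA and 12.2 to 21.9 CPM in the phenolic acids. Sp7, osterix, overlapped at 17.4 to 21.9 CPM in OVX-ZA and 17.2 to 55.0 CPM in the phenolic acids.

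Osteocyte genes as a list did not separate the groups, with a median of -0.01. Sost, the Wnt inhibitor sclerostin, read 13.8, 6.52 and 13.6 CPM in OVX-ZA, against 5.04, 14.5 and 4.06 CPM in OVX-HA and 13.1 and 6.74 CPM in OVX-PPA. Dmp1, a matrix phosphoprotein of osteocytes, read 13.4 to 18.9 CPM in OVX-ZA and 16.1 to 42.1 CPM in the phenolic acids, with an unadjusted p of 0.0399 (edgeR). Of 19 collagen folding and cross-linking genes, 15 had negative differences, 3 of them with an unadjusted p under 0.05, against 2.16% of all genes tested. Their median was -0.09, and -0.00076 without OVX-HA replicate 2, and the list means overlapped. The 2 of these 19 that did not overlap, against 2.39% of all genes, were Serpinh1, a collagen chaperone, and P3h1, a collagen prolyl hydroxylase. Both were below the phenolic acids in all 3 OVX-ZA libraries, at 131 to 150 and 14.6 to 16.3 CPM in OVX-ZA, against 164 to 273 and 17.6 to 23.8 CPM in the phenolic acids. Of 21 cartilage genes, 20 had negative differences and 2, Col11a1 and Col11a2, which encode chains of type XI collagen, did not overlap, against 2.39% of all genes, but the list means did. The median was -0.21, and 0.11 without OVX-HA replicate 2. The difference of these list means was -0.18, and 0.072 without OVX-HA replicate 2. Col11a1 read 42.6 to 48.9 CPM in OVX-ZA and 62.7 to 91.7 CPM in the phenolic acids.

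Factors by which osteoclasts and osteoblasts signal to each other had a median of -0.05 over 16 genes, and 1 list held both Ccl9 and Cthrc1 at opposite ends. Cxcl16, a chemokine released by osteoclasts, read 9.98 to 11.8 CPM in OVX-ZA and 7.43 to 8.52 CPM in the phenolic acids, without overlap, with an adjusted p of 0.503 (edgeR). Sema4d, an osteoclast protein that holds back osteoblasts, read 83.8 to 104 CPM in OVX-ZA and 64.4 to 83.9 CPM in the phenolic acids, which overlapped narrowly.

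**Figure D3:**
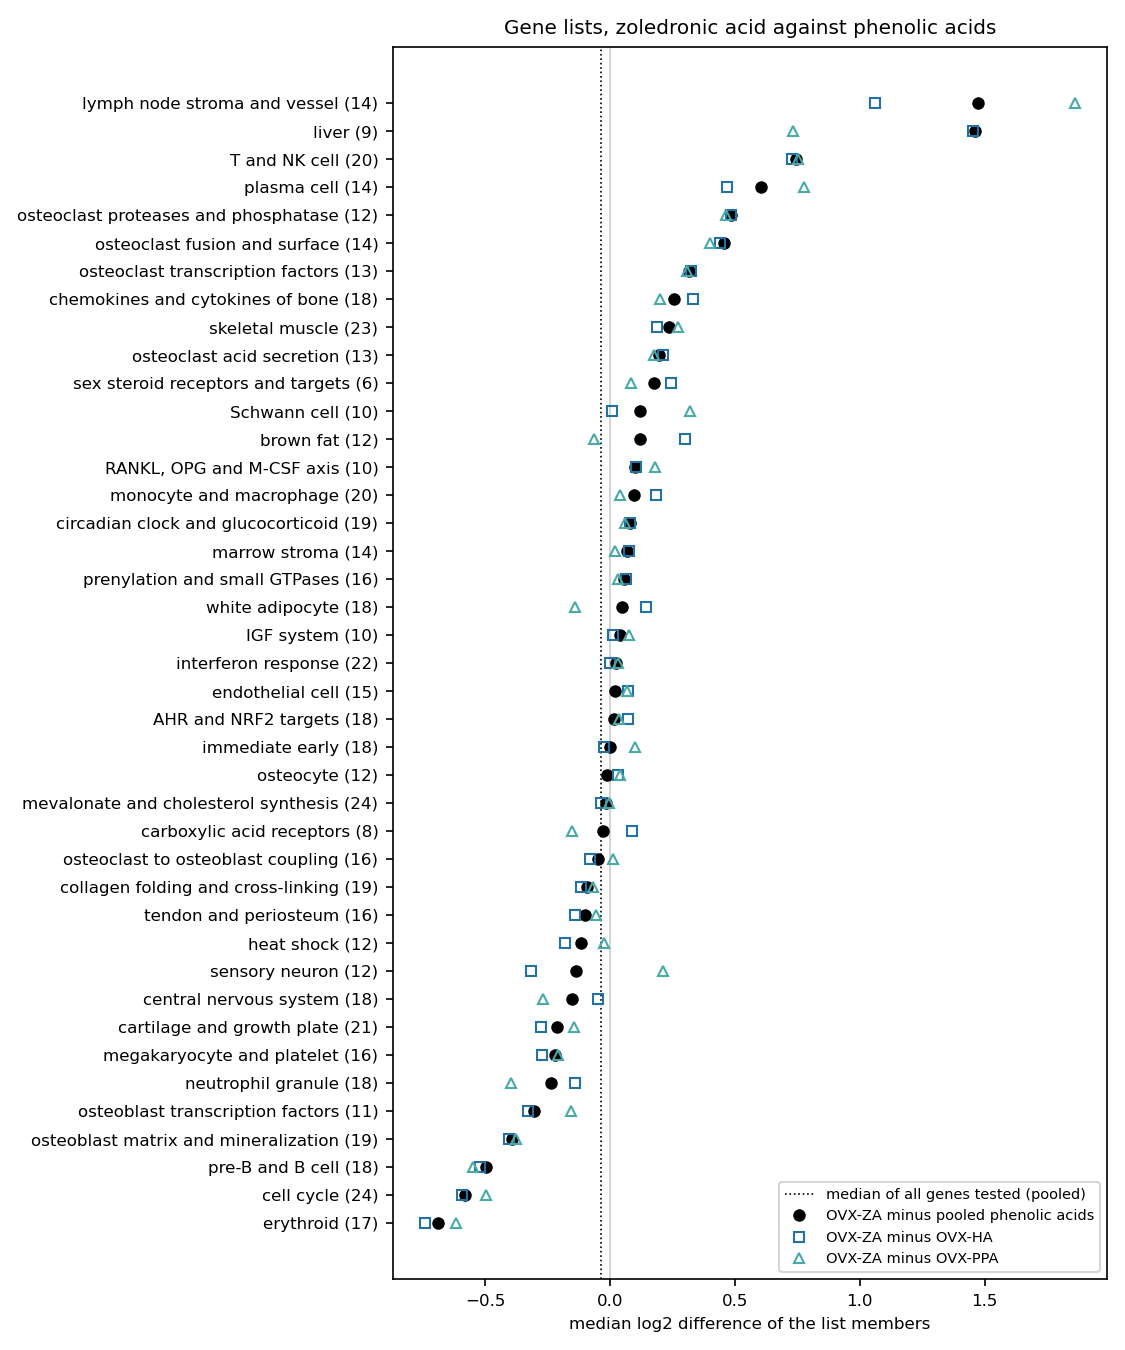
Median log2 difference of each gene list (number of genes tested in brackets) for OVX-ZA minus the pooled phenolic acids (circles), minus OVX-HA (squares) and minus OVX-PPA (triangles); the dotted line is the median of all genes tested, -0.04. Osteoclast lists lie to the right, from 0.20 for acid secretion to 0.48 for proteases, and osteoblast matrix lies to the left at -0.39. Other lists lie further out. To the right are lymph node (1.47), liver (1.46), T and NK cell (0.75) and plasma cell (0.61). To the left are erythroid (-0.69), cell cycle (-0.58) and pre-B and B cell (-0.50).

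No gene of the pathway that zoledronic acid inhibits passed a test at the level of RNA. Among 24 genes of mevalonate and cholesterol synthesis, 0 had an unadjusted p under 0.05, against 3.81% of all genes tested, and the median was -0.02. Fdps read 21.7, 25.5 and 21.8 CPM in OVX-ZA, against 23.8, 25.1 and 22.4 CPM in OVX-HA and 23.1 and 21.4 CPM in OVX-PPA. Its log2 difference was -0.01 with a 95% interval of -0.25 to 0.24, and its sign turned under other scalings. Of 16 genes of prenylation and small GTPases, 0 had an unadjusted p under 0.05, and 0 of 8 receptors of carboxylic acids did. At a share of 3.81% over all genes, lists this short would hold few or none. A count of 0 thus does not set any of these lists apart from other genes. Hcar2, the niacin receptor, read 3.46, 2.50 and 1.69 CPM in OVX-ZA and 1.41 to 3.42 CPM in the phenolic acids.

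Fat genes did not separate the groups either. Among 18 white adipocyte genes, 0 had an unadjusted p under 0.05, against 3.81% of all genes tested, with a median of 0.05. Adipoq, the adipocyte hormone adiponectin, read 107, 104 and 72.3 CPM in OVX-ZA, against 119, 80.9 and 74.4 CPM in OVX-HA and 119 and 95.8 CPM in OVX-PPA. Its log2 difference was -0.05, with an interval of -0.60 to 0.51. Ucp1, the uncoupling protein of brown fat, varied within groups, at 56.1 to 115 CPM in OVX-ZA and 12.5 to 177 CPM in the phenolic acids. Esr1, the estrogen receptor, did not overlap, at 27.5 to 30.1 CPM in OVX-ZA and 18.3 to 25.8 CPM in the phenolic acids, with a log2 difference of 0.32 and an unadjusted p of 0.0315 (edgeR). It was the 1 of 6 sex steroid receptor and target genes tested that did not overlap, against 1.41% of all genes above. Esr1 did not pass adjustment.

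The pooled difference was also read against each phenolic acid. These contrasts share the OVX-ZA libraries, so they are given side by side and are not independent. Against OVX-HA, 1 gene was higher (0.0046%) and 0 were lower, Ocstamp, with a log2 difference of 2.66 ± 0.313 (SE) and an adjusted p of 0.0411 (edgeR), and Dcstamp followed at 2.64 ± 0.347 and 0.0661. At an unadjusted p under 0.05 were 820 genes (3.77%), 297 higher (1.36%) and 523 lower (2.4%). Leaving out OVX-HA replicate 2 gave 4 calls, leaving out OVX-ZA replicate 2 gave 1, and leaving out each of the other 6 libraries gave 0. Against OVX-PPA 0 genes were called, with 449 (2.06%) at an unadjusted p under 0.05, 229 higher (1.05%) and 220 lower (1.01%), and 14 called by DESeq2. Ocstamp had a log2 difference of 2.30 ± 0.362 and Dcstamp of 2.40 ± 0.404, both with an adjusted p of 0.717 (edgeR). Ctsk had log2 differences of 1.53 against OVX-HA and 1.42 against OVX-PPA, and Bglap of -1.93 and -1.65.

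Hippuric acid and 3-3-PPA, the 3-3-PPA group being of 2 libraries, were then set against each other. By edgeR 0 genes were called between OVX-HA and OVX-PPA, with 260 (1.19%) at an unadjusted p under 0.05, and DESeq2 called 0. For Ocstamp the log2 difference between OVX-HA and OVX-PPA was -0.36, with a 95% interval of -1.10 to 0.38, and for Bglap 0.28, with an interval of -0.44 to 1.00. These intervals are wide, and they do not show that the compounds act alike. Over the 3 pairs of compounds adjusted together (65283 tests), 0 differences were called and the smallest adjusted p was 0.123, for Ocstamp between OVX-ZA and OVX-HA (edgeR). Since the doses are unknown, they could not be matched.

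**Figure D4:**
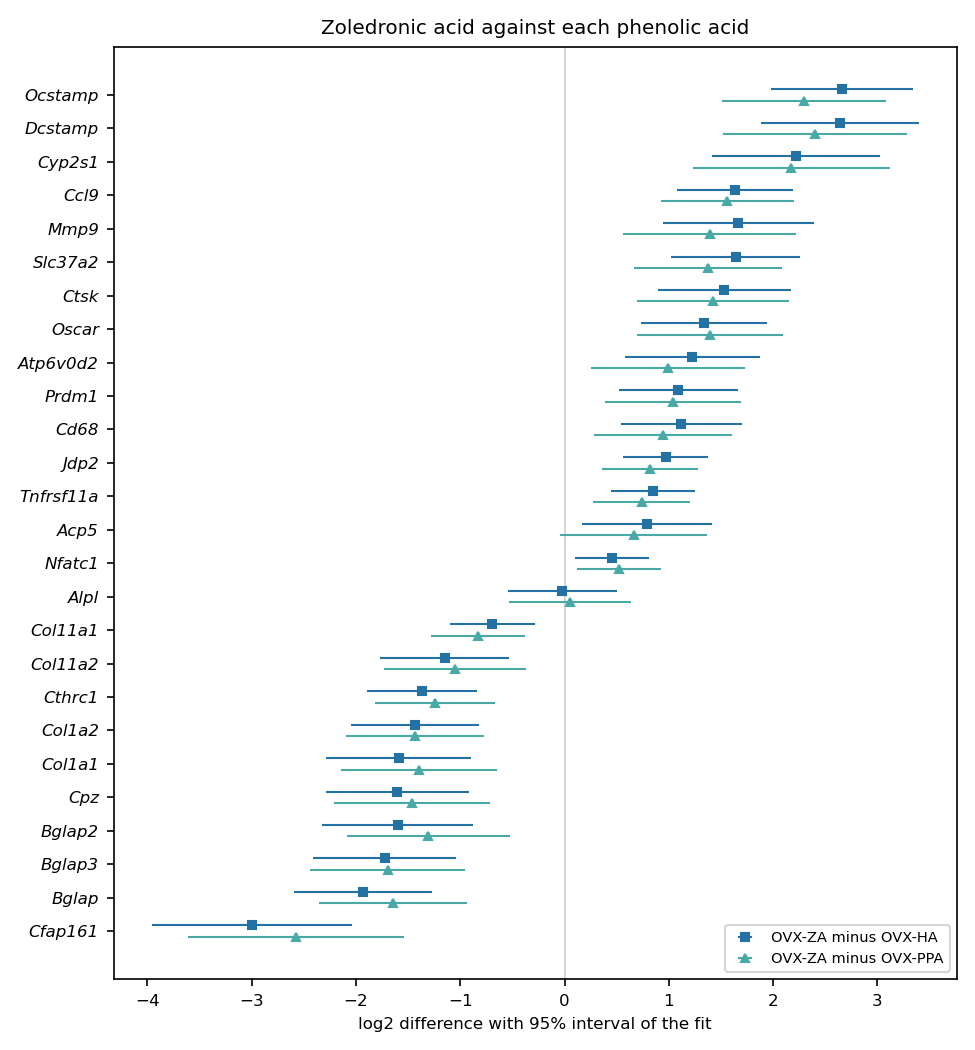
Log2 differences of OVX-ZA minus OVX-HA (squares) and OVX-ZA minus OVX-PPA (triangles) for genes named in the text, with 95% intervals of the edgeR fit as bars. Ocstamp lies at 2.66 and 2.30 and Bglap at -1.93 and -1.65, and both sets share the OVX-ZA libraries.

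Lists of other cells moved with single libraries. T and NK cell genes had a mean log2 CPM of 1.35, 2.01 and 0.27 in OVX-ZA, against 0.24, 0.97 and 0.14 in OVX-HA and 0.02 and 0.87 in OVX-PPA, so OVX-ZA replicates 1 and 2 were high and replicate 3 was not. The lymph node list had 7 of 14 members with an unadjusted p under 0.05 and positive differences, against 1.66% of all genes tested. Its mean was 1.59, 2.82 and 0.08 in OVX-ZA, against 0.52, 0.65 and 0.19 in OVX-HA and -0.10 and 0.56 in OVX-PPA. The same 2 libraries were high, and sham replicate 3, at 2.91, was high as well. Cd8b1, a T cell coreceptor, read 2.89, 4.33 and 0.330 CPM in OVX-ZA, against 0.0543 to 0.519 CPM in the phenolic acids. With OVX-ZA replicate 3 as the only OVX-ZA library, Ocstamp had a log2 difference of 2.51 and Dcstamp of 2.23, with 0 genes called by edgeR; that fit assumes that the lone library varies like the other groups.

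Some genes of early B cells were lower in OVX-ZA than in the phenolic acids but did not pass. The pre-B and B cell list means overlapped, at 2.88, 3.49 and 2.42 log2 CPM in OVX-ZA against 2.88 to 3.92 in the phenolic acids. Sham was as low as OVX-ZA, at 2.15, 3.03 and 3.06, and OVX-PBS read 3.19, 3.38 and 4.00. Vpreb3, a chain of the surrogate light chain complex of pre-B cells, read 6.84, 8.80 and 5.08 CPM in OVX-ZA, against 10.6, 21.5 and 13.2 CPM in OVX-HA and 9.77 and 18.2 CPM in OVX-PPA (log2 difference -1.09, unadjusted p = 0.00681, edgeR). Of 18 genes of that list, 6 had an unadjusted p under 0.05 with negative and 1 with positive differences, against 2.16% and 1.66% of all genes tested. That 1 was Cr2 of mature B cells, which among these 8 libraries was high in OVX-ZA replicates 1 and 2. Erythroid genes were negative in 17 of 17 and cell cycle genes in 24 of 24. In either list 0 were under 0.05, against 2.16% of all genes tested. Without OVX-HA replicate 2 their medians moved from -0.69 to -0.23 and from -0.58 to -0.17. The erythroid list means of OVX-HA replicates 1 and 3, 7.88 and 7.87, were below those of OVX-ZA, 7.93 to 7.98. Mki67, a marker of dividing cells, read 309, 350 and 312 CPM in OVX-ZA, against 323, 1065 and 327 CPM in OVX-HA and 563 and 471 CPM in OVX-PPA. OVX-HA replicates 1 and 3 lay with OVX-ZA, and OVX-HA replicate 2 and OVX-PPA were high.

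**Figure D5:**
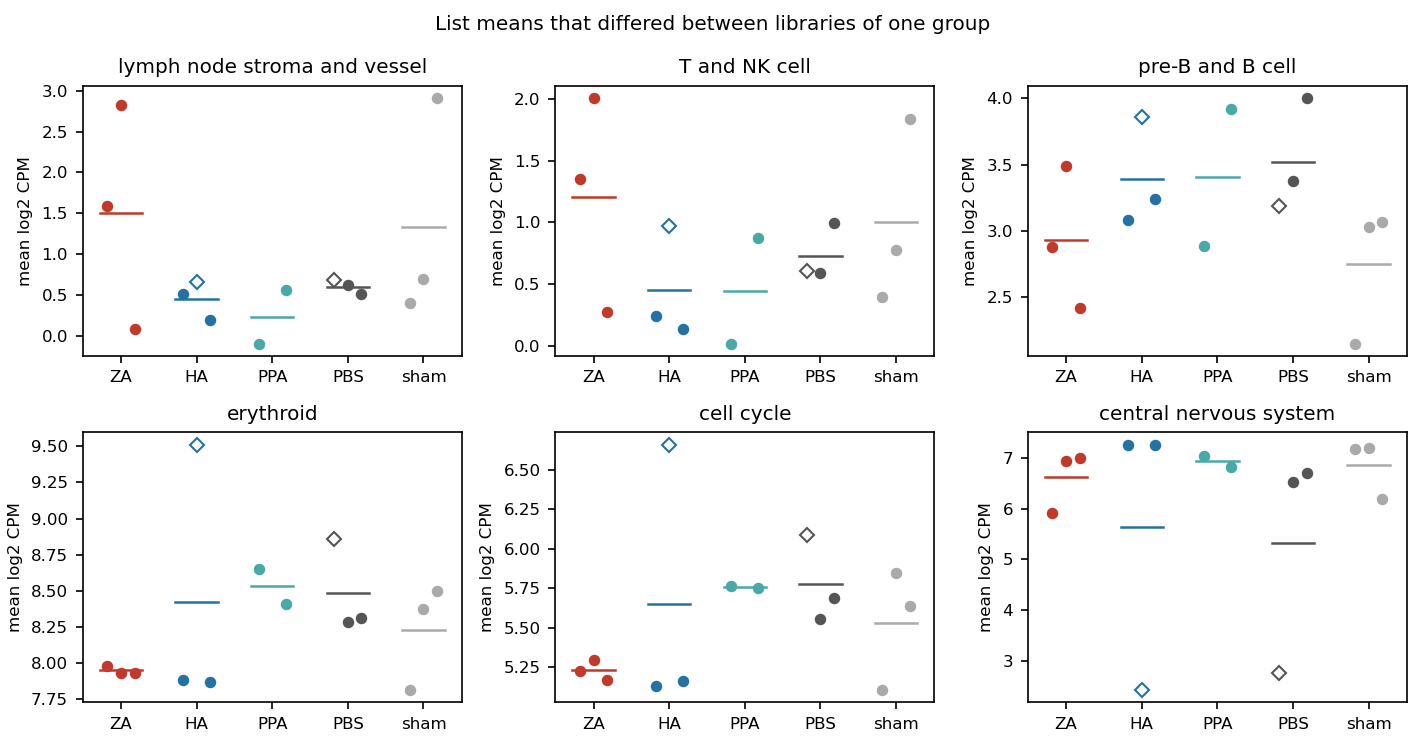
Mean log2 CPM of 6 gene lists in each library of OVX-ZA, OVX-HA, OVX-PPA, OVX-PBS and sham (points), with group means as lines; open diamonds mark OVX-HA replicate 2 and OVX-PBS replicate 1. The lymph node list reads 1.59, 2.82 and 0.08 in OVX-ZA, and the cell cycle list reads 6.66 in OVX-HA replicate 2 against 5.13 and 5.16 in the other OVX-HA libraries.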

How the data were processed

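The members, gene lists and alternatives were chosen with earlier results of these data known. Poly(A) RNA from tibia was made into libraries with a stranded mRNA kit and read as single reads of 75 nt, per the labels' protocols. The submitters' processing notes name the build mm10 and, in no stated order or role, STAR 2.7.8a, Bowtie2 2.2.5, Partek and CASAVA 1.8.1. The counting tool, its annotation and its use of strand were not given in the sources used here. The authors deposited estimated counts per gene symbol, not normalized, of which 20.7% were over 0.01 away from a whole number, and a second table of log2 values that the authors deposited, which differed from log2 of the same counts by 1 constant per library (to within 0.0056) and was not tested. All columns matched a sample title (0 unmapped).

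Estimated counts were rounded, the filterByExpr filter by group left 21761 of 55291 symbols and libraries were scaled by TMM. The quasi-likelihood model (R 4.3.3, edgeR 4.0.16) was fitted to 14 libraries with 5 group means and 9 residual degrees of freedom, and OVX-ZA was set against 0.6 of the OVX-HA plus 0.4 of the OVX-PPA mean, so that each phenolic acid library has the same weight. Tests were two-sided, with BH adjustment over all genes tested and a threshold of 0.05. The biological coefficient of variation was 25.0%. DESeq2 1.42.0 was the alternative test. The depth of 11.9 to 35.4 M estimated counts among the 8 libraries limits the precision of genes with few counts. Genes were named by rank: per direction, those passing adjustment or otherwise the 6 with the smallest p whose groups did not overlap, with a mean of at least 2 CPM in the higher group, without predicted genes, pseudogenes or receptor segments; then up to 4 members of each list with the smallest p, and fixed markers, of which 1 is not reported here. List means used log2 CPM with a prior count of 2. No 2 of the 8 libraries shared more than 2.16% of genes with an identical count, so no column was a copy of another. Scripts were tested on simulated data, where DESeq2 made more false calls than edgeR in the pooled comparison (30 against 3), so counts by DESeq2 are to be read with that in view. Of 100 simulated 2-fold changes edgeR recovered 54 and DESeq2 67, and of 100 4-fold changes 87 and 93. Few calls by edgeR therefore do not show that few genes differed. The simulation used edgeR's own estimates of spread and held no outlying library such as OVX-HA replicate 2. Gene positions are from GENCODE (mm10), and promoters from RefSeq (GRCm38.p6).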

Additional observations from a re-analysis of the deposited data

Results flagged for a closer look

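Among the 5 phenolic acid libraries, 123 values were examined for a library far from the other 4, and 14 were picked out, 11 of them with OVX-HA replicate 2 as that library. Chance alone picks out about 1 in 20 such groups, and values of 1 library are not independent. OVX-HA replicate 2 was far above the other 4 libraries for Cfap161 (4.01 CPM against 1.41 to 2.01), Bglap (361 CPM against 129 to 196), Col1a1 (4974 CPM against 2045 to 2801), Tnfrsf11b (12.4 CPM against 5.44 to 7.38), Sdc1 (23.2 CPM against 15.7 to 17.8) and Dnajb1 (57.1 CPM against 30.7 to 37.6). The matrix genes Bglap and Col1a1 and the gene Cfap161 are thereby further from OVX-ZA in that library than in the other phenolic acid libraries.

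By list mean (log2 CPM), OVX-HA replicate 2 was far above the other 4 for the RANKL axis (3.57 against 3.39 to 3.43) and collagen folding (5.63 against 5.31 to 5.40), and far below them for circadian clock and glucocorticoid genes (4.86 against 5.2 to 5.30), sex steroid receptors (1.71 against 2.22 to 2.37) and the central nervous system (2.42 against 6.83 to 7.26). In other libraries, Snx10, a sorting protein of osteoclasts, was low in OVX-HA replicate 3 (51.6 CPM against 57.5 to 59.6), Csf1, which encodes M-CSF, was high in OVX-PPA replicate 2 (48.9 CPM against 42.5 to 43.8), and Ifi202b had its 1 count in OVX-PPA replicate 1 (0.0543 CPM against 0). With only that 1 count among the phenolic acid libraries, Ifi202b was bound to be picked out, so for it this is no test.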

How the results depend on the processing

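The number of genes called between OVX-ZA and the pooled phenolic acids, 2 in all, was the most sensitive result. It was 53 by DESeq2, 11 with no filter on low counts (8 higher, 3 lower), 6 with 1 mean for the phenolic acids, 13 in libraries with central nervous transcripts (without OVX-HA replicate 2 and OVX-PBS replicate 1), 17 with the central nervous list mean as a covariate, and 0 in the fit of 8 libraries and with OVX-ZA replicate 3 as the lone OVX-ZA library. RLE scaling and equal weight per compound gave 2. Alternatives chosen after seeing the data gave 7 (7 libraries without OVX-HA replicate 2) and 67 (DESeq2 without it). Leaving out 1 library gave 0 to 17. OVX-ZA against OVX-HA gave 1, with 29 by DESeq2, 8 with no filter, 4 in libraries with central nervous transcripts and 0 to 4 with 1 library left out; OVX-ZA against OVX-PPA gave 0, with 14, 0, 2 and 0 to 2 for the same settings. OVX-HA against OVX-PPA gave 0 in each of them. Whether the replicate numbers paired the samples could not be told from the values. Deviations were taken from the means of groups of 2 or 3 libraries, which ties their correlations together. Those of the 2 OVX-PPA libraries mirror each other, such as -0.048 and 0.048 with OVX-ZA replicate 1. Over 7 same-number pairs, correlations of deviations ran from -0.25 to 0.25 and 3 were over 0.1. OVX-ZA replicate 1 correlated better with OVX-HA replicate 2 (0.32) than with OVX-HA replicate 1. With the replicate number as a block, 0 genes were called in each of the 4 comparisons (706 at an unadjusted p under 0.05 in the pooled one), and the log2 difference was 2.57 for Ocstamp and 2.60 for Dcstamp.

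Of 82 genes named, 71 kept their sign in all 20 alternatives, and 11 did not. Genes whose groups did not overlap could not turn when 1 library was left out, so for them this is no test. The 11 are given next. With OVX-ZA replicate 3 alone, log2 differences turned to -0.37 for Plin1, -0.50 for Ucp1, -0.55 for Hcar2, -0.0041 for Il4ra, -5.55 for Glycam1 and -1.16 for Cr2. In libraries with central nervous transcripts they turned to 0.11 for Tnfrsf11b, -0.13 for Ucp1, -0.023 for Hcar2 and 0.055 for Fdps; in the 7 libraries to 0.12, -0.16, -0.018 and 0.064, and by DESeq2 without OVX-HA replicate 2 to 0.11, -0.12, -0.012 and 0.054, in the same order. Equal weight gave -0.019 for Hcar2. Fdps turned to 0.022 by DESeq2, 0.020 with RLE, 0.025 with no filter, 0.0018 with equal weight and 0.011 with the replicate block. Leaving out 1 library gave ranges of -0.27 to 0.12 for Tnfrsf11b, -0.21 to 0.22 for Alpl, -0.15 to 0.11 for Adipoq, -0.024 to 0.32 for Pparg, -0.058 to 0.30 for Plin1, -0.22 to 0.92 for Ucp1, -0.25 to 0.25 for Hcar2 and -0.089 to 0.062 for Fdps. The means of the 5 osteoclast and RANKL axis lists and of the osteoblast matrix list did not overlap between the groups. Leaving out 1 library could not turn the sign of these. Of 41 lists, 27 kept the sign of the difference of list means under the 10 alternatives (RLE scaling, a prior count of 0.5 and 1 library left out), among them all 5 osteoclast and RANKL axis lists and both osteoblast lists. The other 14 turned in at least 1: 9 of them without OVX-HA replicate 2, such as cartilage (-0.18 with all libraries, 0.072 without it) and the central nervous system (0.46 and -0.44), and 3 with RLE, namely interferon, mevalonate and osteocyte genes. In 4 lists the median and the difference of means had opposite signs (coupling, interferon, immediate early and central nervous system). Prenylation moved by more than its spread in 1 case (0.045 with all libraries, 0.031 to 0.10). The cause of these changes was not tested. Depth limits genes with few counts, such as Cfap161 and Ifi202b.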

Other observations

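Some gene groups outside bone showed values of interest without passing the test over all genes. Cyp1a1, the classic target of the aryl hydrocarbon receptor, read 0.990, 0.804 and 7.34 CPM in OVX-ZA, against 0.295 to 1.17 CPM in the phenolic acids, with a log2 difference of 2.35, and of 0.55 without OVX-ZA replicate 3. Cyp1b1, another target of that receptor, read 18.7 to 27.1 CPM in OVX-ZA and 15.5 to 21.2 CPM in the phenolic acids. The plasma cell list had 13 of 14 positive differences with a median of 0.61, and of -0.10 with OVX-ZA replicate 3 as the lone OVX-ZA library. Its list mean was 4.59, 4.70 and 3.76 log2 CPM in OVX-ZA and 2.96 to 4.14 in the phenolic acids, so OVX-ZA replicates 1 and 2, which carried lymph node transcripts, were high and replicate 3 was not. Sdc1, which marks plasma cells and many other cells, read 34.9, 21.9 and 24.9 CPM in OVX-ZA and 15.7 to 23.2 CPM in the phenolic acids. Nr4a1, an immediate early nuclear receptor, did not overlap, at 80.2 to 101 CPM in OVX-ZA and 59.0 to 73.7 CPM in the phenolic acids, with an unadjusted p of 0.0544 (edgeR), while the other immediate early genes had a list median near 0. Neutrophil granule genes were negative in 18 of 18, with overlapping list means. Of them 0 were under an unadjusted p of 0.05, against 2.16% of all genes tested. Their median was -0.24, but 0.085 without OVX-PPA replicate 2 and -0.056 without OVX-HA replicate 2, the highest phenolic acid libraries at list means of 7.10 and 6.75. Skeletal muscle genes took 7.22 to 9.60% of counts in OVX-ZA and 5.87 to 9.51% in the phenolic acids.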
